A study of Mus musculus with 43 samples.

Results

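The 10 genes of the circadian clock described here were followed through the RNA sequencing of sorted brain endothelial cells (EC) of inbred mouse strains. They are matched by symbol, with no threshold on their values, and are 10 of the 54532 genes in the count table: Arntl (also called Bmal1), Clock, Per1, Per2, Per3, Ciart, Nr1d1, Nr1d2, Dbp and Tef. The study asked how EC of the blood-brain barrier differ between mouse strains. Its 43 libraries came from mice aged 2 months, housed under regular light and dark cycles, whose cortex or hippocampus was dissociated with enzymes and sorted for live cells that were CD31+, CD45- and CD11b-. Long-inbred laboratory strains were C57BL/6J (6 libraries), DBA/2J (5), A/J (5), NOD/ShiLtJ (6) and 129S1/SvImJ (9). The strains CAST/EiJ (6) and WSB/EiJ (6) are recently derived from wild mice. There were 21 cortex and 22 hippocampus libraries, and 16 came from female and 27 from male mice. The titles also carry a tag, high or low, which the labels do not explain. It was high in 15 of the 16 female libraries and in 14 of the 27 male libraries. The labels name no treatment and no transgene.

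Neither the hour of collection nor the mouse behind a library is labelled, so clock phase at collection cannot be told apart from strain, sex or tag in anything below. The p-values measure the spread between libraries, part of which may be technical, and cortex and hippocampus libraries of the same title may share a mouse. Libraries that share a mouse are not independent replicates. The p-values between strains, origins, sexes and tags would then be too small. A title set is used here for the libraries that share strain, sex, tag and title number. There were 24 such sets, of which 19 had a library of each region.

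The mammalian clock is a feedback loop of transcription that runs in nearly every cell, EC included. ARNTL and CLOCK form a dimer that binds E-box motifs and switches on the Per genes, Ciart, the Nr1d genes and Dbp, and the PER proteins, together with the cryptochromes, then shut that dimer off. NR1D1 and NR1D2 (REV-ERB alpha and beta) are nuclear receptors that repress Arntl through the ROR response element (RORE), which sets Arntl against them in phase. DBP and TEF are PAR bZIP factors that drive output genes, and Per3 among others, through the D-box. Per1 can also be induced directly, by glucocorticoids through its own response element and by cAMP signalling, so that it moves with stress hormones as well as with the hour.

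The motifs that tie these genes together were looked for in the bases just upstream of their starts. Reference promoter sequence from RefSeq (GRCm38.p6) was found for 9 of the 10 genes, all but Per2, in 14 entries. The searched letters were CACGTG (E-box), CACGTT (E'-box), TTATGTAA or TTACGTAA (D-box) and TAGGTCA or TGGGTCA (RORE), on either strand, in the 250 bases before each start. None of these words contains another. At least 1 of the words was found for 5 members, and an entry of each is given here to show the matched letters. None of the words was found in the windows of Arntl, Clock, Nr1d2 or Dbp, and no RORE in those of any of the 9 genes. The matched letters are in capitals and each sequence is written 5' to 3' on the strand of its gene.
Per1, chr11:69098699-69098948, plus strand: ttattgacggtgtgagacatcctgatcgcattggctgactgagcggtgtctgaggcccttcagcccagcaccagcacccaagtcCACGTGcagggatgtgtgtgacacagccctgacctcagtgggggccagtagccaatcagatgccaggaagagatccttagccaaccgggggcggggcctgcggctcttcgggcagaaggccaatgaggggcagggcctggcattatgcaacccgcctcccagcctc
Per3, chr4:151044666-151044915, minus strand: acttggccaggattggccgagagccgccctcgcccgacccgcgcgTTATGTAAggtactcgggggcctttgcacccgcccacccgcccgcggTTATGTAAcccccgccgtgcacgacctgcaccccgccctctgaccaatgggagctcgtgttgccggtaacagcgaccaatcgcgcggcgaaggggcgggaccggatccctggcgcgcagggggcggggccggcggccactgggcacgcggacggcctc
Ciart, chr3:95882229-95882478, minus strand: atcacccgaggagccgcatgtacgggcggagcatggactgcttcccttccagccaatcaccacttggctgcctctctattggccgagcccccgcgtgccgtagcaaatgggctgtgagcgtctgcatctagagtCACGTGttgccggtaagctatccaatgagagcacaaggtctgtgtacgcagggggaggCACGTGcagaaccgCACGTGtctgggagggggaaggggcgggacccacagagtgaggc
Nr1d1, chr11:98775378-98775627, minus strand: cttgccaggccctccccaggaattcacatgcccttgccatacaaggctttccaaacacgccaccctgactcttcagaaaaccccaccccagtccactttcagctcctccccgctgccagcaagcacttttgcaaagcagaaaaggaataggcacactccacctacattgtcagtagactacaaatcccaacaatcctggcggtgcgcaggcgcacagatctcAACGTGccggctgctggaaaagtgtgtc
Tef, chr15:81811164-81811413, plus strand: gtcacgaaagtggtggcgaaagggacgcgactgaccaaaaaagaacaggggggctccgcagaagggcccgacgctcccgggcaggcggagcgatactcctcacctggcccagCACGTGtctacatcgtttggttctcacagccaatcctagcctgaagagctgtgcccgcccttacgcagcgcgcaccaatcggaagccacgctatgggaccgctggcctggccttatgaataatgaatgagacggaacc
Ciart held 3 E-boxes, which began 116, 58 and 44 bases before its start, and 0.0609% of the 32851 mouse promoters searched had as many. Per3 held 2 copies of the D-box, at 205 and 158 bases, a number reached by 0.0213% of promoters. Per1 and Tef held 1 E-box each in the windows shown, at 166 and 138 bases. Nr1d1 held an E'-box, printed on its gene's strand as AACGTG, at 28 bases. Over all promoters 6.02% held an E-box, 3.85% an E'-box, 0.931% a D-box and 5.38% a RORE. A match of letters describes these windows only, and no binding was measured. The last 23 bases of the Ciart window lie in an annotated exon of Ciart. Of the windows without a match, annotated exons of the gene cover 159 bases for Dbp and 21 for Nr1d2. They also cover 138 bases of 1 Clock window and 46 of 1 Arntl window. The absence of the words there thus does not describe upstream bases alone.

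The depth of the libraries ran from 1626534 to 49372356 counts. Female libraries tended to be deeper (2731954 to 49372356) than male libraries (1626534 to 10567966), and the share of counts on 3 genes with ribosomal RNA-like reads (Gm23935, Gm42418 and Gm26917) was 1.59% to 12.1% in female and 13.0% to 29.3% in male libraries. WSB/EiJ libraries were the shallowest of the strains, at 1626534 to 5331064 counts. Endothelial markers were abundant throughout: the sum of 10 such genes was 8570 to 17247 CPM (read counts scaled to the library's total), and Ly6c1 alone was at 0 in 2 libraries. Pericyte markers (8 genes, 1887 to 9513 CPM) and astrocyte markers (1065 to 19372 CPM) were also measured in each library, whereas microglial markers stayed at 0 to 108 CPM. In such bulk samples fewer cells of a type and less RNA per cell cannot be told apart.

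Levels were read as CPM with TMM scaling, where 3 counts in a library, taken as the floor, were worth 0.0537 to 1.84 CPM. Per length of exon, Nr1d1 was the most abundant of the 10 genes, with a mean of 48.3 ± 22.7 RPKM (SD, n = 43). Dbp (17.9 ± 14.8 RPKM), Per1 (14.2 ± 14.5 RPKM) and Nr1d2 (13.7 ± 7.67 RPKM) came next. Tef, Clock and Arntl lay between 7.96 and 9.54 RPKM, and Per3 (2.95), Per2 (2.06) and Ciart (1.51 RPKM) were low. These SDs are as large as the gaps between most neighbours in this order. Ciart was at or under 3 counts in 15 of the 43 libraries, Per2 in 4 and Per3 in 1, so folds of those 3 genes are coarse.

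The spread of the clock genes between libraries was wide. Of the activators, Clock was the steadiest gene, at 46.0 CPM in the lowest, 107 in the median and 221 in the highest library. Its coefficient of variation was 27.4%. Arntl ran from 3.63 CPM through a median of 66.5 to 130 CPM, and its coefficient of variation was 51.9%. Among repressors, Per1 ran from 8.94 through 51.9 to 364 CPM, a coefficient of variation of 102%. Among outputs, Dbp ran from 3.57 through 41.7 to 209 CPM. The highest library thus exceeded the lowest by 58.6-fold for Dbp, 40.7-fold for Per1 and 35.8-fold for Arntl, but by 4.80-fold for Clock. For Nr1d1 (44.2 to 346 CPM), Nr1d2 (31.1 to 206 CPM) and Tef (20.6 to 168 CPM) the span was 6.62-fold to 8.15-fold.

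**Figure D1:**
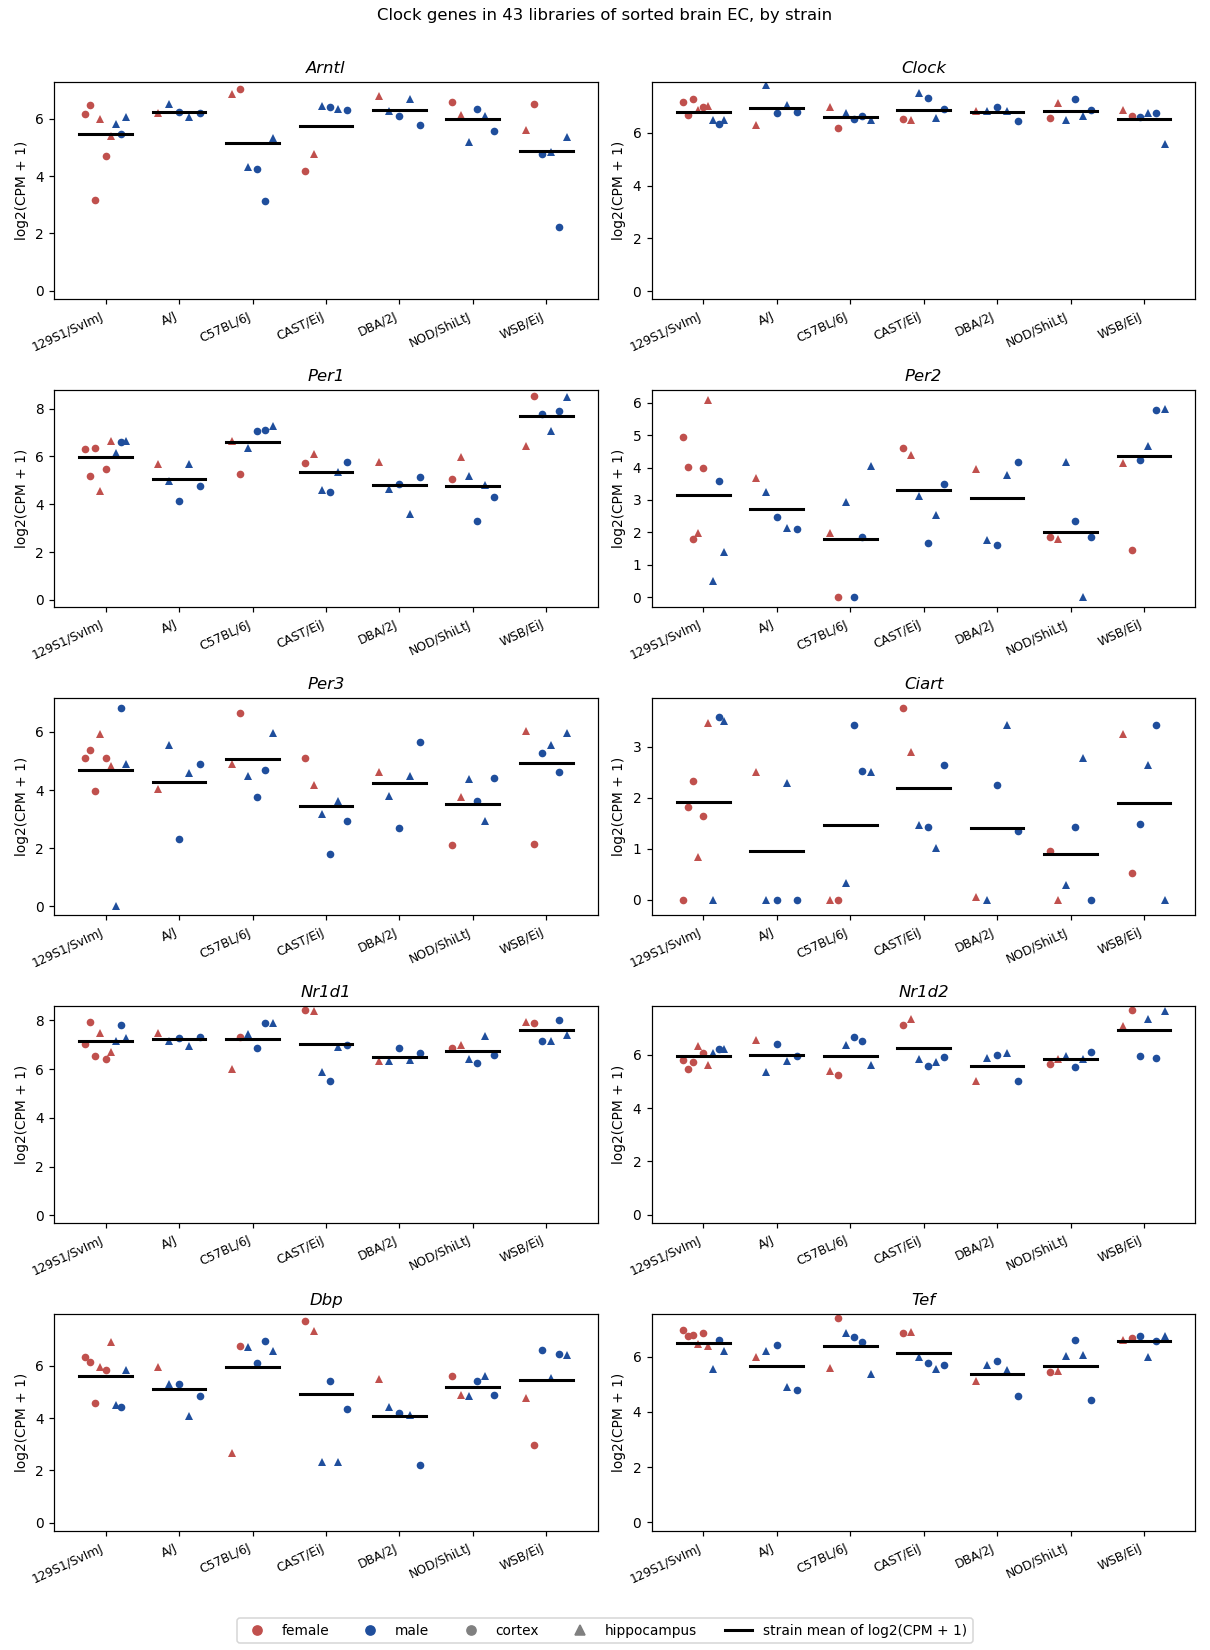
Level of each of the 10 clock genes, as log2(CPM + 1), in the 43 libraries, by strain. Symbols mark sex and region and horizontal bars the strain means; Per1 stands highest in WSB/EiJ, where 4 of 6 libraries lie above all 37 libraries of the other strains.

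The comparison among the 7 strains called 2 of the 10 clock genes, Per1 and Nr1d2, where 2.68% of all 29120 genes tested were called. By edgeR's quasi-likelihood test with Benjamini-Hochberg adjustment the adjusted p was 1.04e-09 for Per1 and 0.0389 for Nr1d2. The next were Tef at 0.147, which passed by DESeq2 (adjusted p 0.0352) and in none of the other 9 alternative fits, and Per3 at 0.315, and the remaining 6 had adjusted p-values of 0.357 to 0.958. An unadjusted p under 0.05 was reached by 7 of the 10 clock genes and by 10.7% of all genes. The Nr1d2 call was a marginal one. It was lost in 19 of the 43 fits that left out a single library each (adjusted p 0.0130 to 0.232 over the 43). The libraries concerned were 5 of NOD/ShiLtJ, 5 of 129S1/SvImJ, 4 of WSB/EiJ, 2 of DBA/2J and 1 each of C57BL/6J, A/J and CAST/EiJ, with the highest p without replicate 2 of WSB/EiJ, a female cortex library. The Nr1d2 call was lost also with the scaling of DESeq2 (adjusted p 0.0621) or with depth as a covariate (0.110).

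WSB/EiJ was the strain in which Per1 stood out. Its 6 libraries held 86.5 and 364 CPM in females (hippocampus and cortex) and 135, 216, 242 and 359 CPM in males. In the 37 libraries of the other strains Per1 was 8.94 CPM at the lowest, 43.8 at the median and 154 at the highest. All 6 WSB/EiJ values were thus above the median of the others and 4 were above their maximum. Against the mean of the other 6 strains the log2 fold change of Per1 was 2.32 (SE 0.25, adjusted p = 2.04e-10 by edgeR's quasi-likelihood test). It was 2.76 in cortex libraries alone, 1.92 in hippocampus libraries alone and 2.45 in male libraries alone, each past the threshold, and 2.13 to 2.49 without each WSB/EiJ library in turn.

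Nr1d2, the close relative of Nr1d1, was the other gene called in WSB/EiJ. Its values were 57.2, 61.1, 134, 159, 196 and 206 CPM, against 31.1 to 162 CPM (strain means of 49.8 to 85.7) elsewhere. The WSB/EiJ values thus fell apart into 2 libraries at the level of other strains and 4 above each of the other strains' means. The log2 fold change was 1.09 (SE 0.24, adjusted p = 0.00418 by edgeR's quasi-likelihood test). It was 1.37 in hippocampus libraries (adjusted p 0.0231) and 0.75 in cortex libraries (adjusted p 0.501), and the call was lost without the female cortex library (adjusted p 0.0601) and in male libraries alone (0.92, adjusted p 0.0846). Both calls were upward. Of all genes 2.41% were called in WSB/EiJ, 1.73% higher and 0.68% lower.

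The other clock genes of WSB/EiJ did not pass the test. Per2 had a log2 fold change of 1.82 (SE 0.62, adjusted p 0.105 by edgeR's quasi-likelihood test), with 54.0 and 54.6 CPM in the males titled high, 17.9 and 24.1 in the males titled low, and 16.6 and 1.73 in the females. Nr1d1 had 0.54 and Tef 0.52. Arntl had -0.70 (SE 0.38, adjusted p 0.456), and its lowest value in the series, 3.63 CPM, was in a WSB/EiJ male cortex library in which Per1 was at 242 and Per2 at 54.0 CPM. The median log2 fold change of the 10 clock genes in WSB/EiJ was 0.57, while that of all genes was -0.72. The median of all genes depended on the processing. It was -0.04 with a stricter filter (15817 genes) and 0.18 by DESeq2. Pericyte markers moved in the same libraries: their sum was 4701 to 9513 CPM (median 8217) in WSB/EiJ and 1887 to 8290 CPM (median 3795) in the other strains. Neuron markers had a median of 353 CPM in WSB/EiJ and 138 CPM elsewhere. By strain, the neuron median was higher in DBA/2J (458 CPM) than in WSB/EiJ. The highest pericyte median of the other strains was that of NOD/ShiLtJ (6059 CPM). The part of these cells and of the lower depth in the Per1 and Nr1d2 values was not tested, apart from a fit with depth as a covariate in which Per1 kept 2.56 and Nr1d2 1.07.

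No other strain had a clock gene past the test against the mean of the rest, by edgeR's quasi-likelihood test. The shares of all genes called were 1.46% in 129S1/SvImJ, 0.254% in A/J, 0.529% in C57BL/6J, 1.35% in CAST/EiJ, 0.192% in DBA/2J and 0.185% in NOD/ShiLtJ. At an unadjusted p under 0.05 the clock genes numbered 2, 1, 2, 0, 4 and 2 of 10 in those strains, beside 19.7%, 10.1%, 13.2%, 10.5%, 7.66% and 9.52% of all genes. DESeq2 called Per1 in C57BL/6J (adjusted p 0.0273) and in NOD/ShiLtJ (log2 fold change -1.11, adjusted p 0.0400). Nearest to a call was Per1 in C57BL/6J, at 37.9 to 154 CPM (log2 fold change 1.01, SE 0.27, adjusted p 0.0642). It passed in 5 of 10 alternative fits, among them those with the scaling of DESeq2 (adjusted p 0.0425), with no filter (0.0410) and with sex and region as covariates (0.0400). It also passed without the C57BL/6J female cortex library (1.18, adjusted p 0.0331), the DBA/2J female hippocampus library (adjusted p 0.0465) or the NOD/ShiLtJ female hippocampus library (adjusted p 0.0424). In DBA/2J the 4 genes with an unadjusted p under 0.05 all had negative values, namely Dbp (-1.41), Per1 (-1.12), Tef (-0.86) and Nr1d1 (-0.77), with adjusted p-values of 0.291 to 0.455. DBA/2J had the lowest strain mean of Per1 (30.2 CPM), Nr1d1 (90.7), Nr1d2 (49.8), Dbp (20.5) and Tef (41.8 CPM) and the highest of Arntl (81.9 CPM).

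Ordered by strain mean, the repressors and outputs differed in range. Per1 went from 234 ± 114 CPM in WSB/EiJ (SD, n = 6) over 107 ± 43.4 in C57BL/6J (n = 6), 69.4 ± 29.0 in 129S1/SvImJ (n = 9), 42.8 (21.7 to 66.9) in CAST/EiJ (n = 6), 34.9 ± 15.3 in A/J (n = 5) and 30.7 ± 17.9 in NOD/ShiLtJ (n = 6) to 30.2 ± 15.5 in DBA/2J (n = 5), a 7.75-fold span. Dbp spanned 4.11-fold, from 84.0 ± 42.6 CPM in C57BL/6J to 20.5 ± 14.8 CPM in DBA/2J. Nr1d2 spanned 2.72-fold, Tef 2.26-fold, Nr1d1 2.17-fold (197 CPM in WSB/EiJ to 90.7 CPM in DBA/2J) and Arntl 2.07-fold (81.9 CPM in DBA/2J to 39.5 CPM in WSB/EiJ). Clock spanned 1.36-fold, from 129 CPM in A/J to 95.1 CPM in WSB/EiJ. For the low genes the span was 6.09-fold for Per2, 3.38-fold for Per3 and 3.32-fold for Ciart. In none of the 10 orders did neighbouring strains separate: all 6 pairs of neighbours overlapped in their libraries' ranges for each gene.

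Within a strain the libraries of a sex could differ more than strains did. In CAST/EiJ the 2 female libraries, which form 1 title set, held 346 and 336 CPM of Nr1d1, while the 4 male libraries held 44.2, 57.8, 119 and 127 CPM. Dbp was at 209 and 160 CPM in the females and at 3.99, 4.05, 19.6 and 41.7 CPM in the males. Arntl was reversed, at 17.1 and 26.2 CPM in the females and 78.1 to 85.5 CPM in the males. In C57BL/6J the order of Arntl was the other way round, with 116 and 130 CPM in the 2 females and 7.76 to 39.0 CPM in the 4 males.

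These strains were set out by sex after their values had been seen, so counts of them are descriptions. In CAST/EiJ 9 of the 10 clock genes did not overlap between female and male libraries, where 9.09% of all genes did not. Per2, Per3, Ciart, Nr1d1, Nr1d2, Dbp and Tef were higher in the females, Arntl and Clock lower, and Per1 overlapped (51.9 and 66.9 CPM against 21.7 to 53.6 CPM). Clock parted by little, 88.5 and 90.0 CPM against 91.9 to 178 CPM. In WSB/EiJ 3 genes did not overlap (background 9.85%), with Arntl higher and Per2 and Dbp lower in females. In C57BL/6J there were also 3 (9.46%), with Arntl higher and Nr1d2 and Ciart lower, though Ciart parted only below the floor, at 0 CPM in both females and 1 count in a male library. There were 0 in NOD/ShiLtJ (8.22%). The CAST/EiJ females were also deeper than the males (19339962 to 22883689 against 3736712 to 7994762 counts) and lower in rRNA-like reads (9.66% to 10.5% against 19.2% to 23.8%), and the part of either in these values was not tested.

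**Figure D2:**
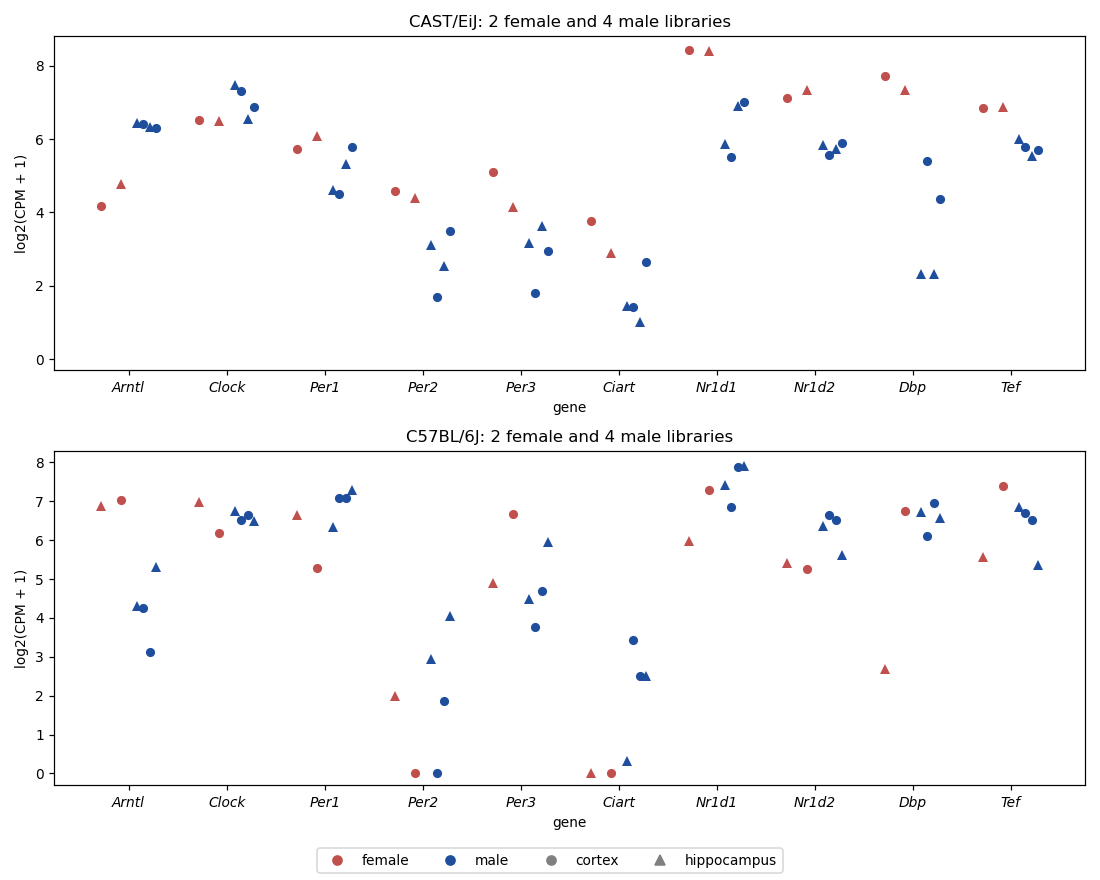
Levels of the 10 clock genes, as log2(CPM + 1), in CAST/EiJ and C57BL/6J, each with 2 female and 4 male libraries. Each point is a library. In CAST/EiJ 9 genes do not overlap between the sexes and Arntl is the lower in females, while in C57BL/6J Arntl is the higher.

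In the 27 male libraries alone, the comparison among strains called 4 clock genes, where 1.72% of 27529 genes were called. By edgeR's quasi-likelihood test the adjusted p was 6.54e-13 for Per1, 0.000147 for Dbp, 0.00445 for Arntl and 0.0396 for Nr1d1. Dbp was higher in C57BL/6J males (68.4, 94.5, 106 and 123 CPM, log2 fold change 1.71, SE 0.34, adjusted p 0.00421) and in WSB/EiJ males (45.6, 84.6, 86.3 and 97.3 CPM, log2 fold change 1.34, SE 0.35, adjusted p 0.0392). The other male libraries held 3.57 to 56.9 CPM of Dbp. Per1 was likewise higher in C57BL/6J males (1.39, SE 0.27, adjusted p 0.00194) and lower in DBA/2J (-1.37, adjusted p 0.0471) and NOD/ShiLtJ males (-1.51, adjusted p 0.0226), and Per2 was higher in WSB/EiJ males (2.66, SE 0.71, adjusted p 0.0407). Shares of all genes called in these contrasts of males were 0.269% for C57BL/6J, 0.817% for WSB/EiJ, 0.196% for DBA/2J and 0.156% for NOD/ShiLtJ. No clock gene passed in males of 129S1/SvImJ (0.28% of all genes), A/J (0.316%) or CAST/EiJ (0.926%), where 2, 3 and 5 of 10 had an unadjusted p under 0.05, beside 14.8%, 10.1% and 8.35% of all genes. Whether strain effects differed between the sexes was not tested, since most strains had 2 female libraries or 1.

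Wild-derived strains, the study's other grouping, had 2 clock genes called against the long-inbred strains, again Per1 and Nr1d2. The background was 0.749% of all genes, and 0.508% were called higher. Per1 had a median of 76.7 CPM in the 12 wild-derived libraries (21.7 to 364) and of 43.8 CPM in the 31 long-inbred libraries (8.94 to 154), a log2 fold change of 1.27 (SE 0.30, adjusted p = 0.0159 by edgeR's quasi-likelihood test). Nr1d2 had a median of 97.6 CPM (46.1 to 206) against 58.0 CPM (31.1 to 99.5), a log2 fold change of 0.87 (SE 0.20, adjusted p = 0.00822). Both rested on WSB/EiJ. Without that strain the values were -0.44 (adjusted p 0.875) for Per1 and 0.48 (adjusted p 0.830) for Nr1d2, and with counts summed per strain, 2 strains against 5, neither was called (adjusted p 0.833 and 0.485). The Per1 call was also lost without A/J (1.13, adjusted p 0.0781), DBA/2J (1.10, adjusted p 0.0879) or NOD/ShiLtJ (1.08, adjusted p 0.101), and without the library of lowest depth, the WSB/EiJ male hippocampus library titled high (1.04, adjusted p 0.109).

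Between hippocampus and cortex no clock gene was called by edgeR's quasi-likelihood test, none had an unadjusted p under 0.05, and DESeq2 called 0. The background was 0.0755% of all genes called and 5.60% at an unadjusted p under 0.05. Tef had the largest log2 fold change, -0.37 (SE 0.20, adjusted p 0.669), with medians of 63.0 CPM in 22 hippocampus and 95.7 CPM in 21 cortex libraries. The other 9 lay between -0.22 (Dbp) and 0.35 (Per2). For Arntl, Clock, Nr1d1 and Nr1d2 the estimates were 0.18, 0.02, -0.10 and 0.14, with SEs of 0.15 to 0.26.

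Female and male libraries, over all strains, also had no clock gene called by edgeR's quasi-likelihood test, while 2.85% of all genes were. Tef (log2 fold change 0.45 in females, SE 0.20, adjusted p 0.286) and Dbp (0.64, SE 0.32, adjusted p 0.369) had an unadjusted p under 0.05, as did 13.1% of all genes, and DESeq2 called 0. Tef was at 33.7 to 168 CPM in females (median 98.3) and 20.6 to 114 CPM in males (median 63.1). Arntl had 0.26 (SE 0.26), with the orders of CAST/EiJ and C57BL/6J opposite, as given above. Sex went with depth and rRNA-like share, and these cannot be told apart here. It also went with the title tag (high in 15 of 16 female and 14 of 27 male libraries). Of the 16 female libraries 6 were of 129S1/SvImJ. In libraries titled high only, and with strain and region as covariates, 0 clock genes were called, beside 448 and 641 genes in all. With depth as a covariate Nr1d2 was called (0.94, adjusted p 0.0364). The median of all genes was -0.12 with TMM and -0.24 with the scaling of DESeq2, and all these values are relative to the former.

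For the title tag within males no clock gene was called by edgeR's quasi-likelihood test, while 1.06% of 27529 genes were. An unadjusted p under 0.05 was reached by 3 of the 10 and by 8.11% of all genes, and DESeq2 called 0. Nr1d1 was at 81.1 to 256 CPM (median 156) in 14 libraries titled high and at 44.2 to 170 CPM (median 115) in 13 titled low, a log2 fold change of 0.52 (SE 0.19, adjusted p 0.283). Per3 had 0.99 (SE 0.43, adjusted p 0.482) and Clock -0.35 (SE 0.17, adjusted p 0.593). Cell type markers went with the tag too, with medians in high against low of 14872 against 12108 CPM for endothelial, 3608 against 6505 CPM for pericyte, 3161 against 5082 CPM for astrocyte, 122 against 289 CPM for neuron and 25.8 against 116 CPM for oligodendrocyte markers. Their part in these values was not tested. The tests of whether sex or tag effects differed between regions called 0 clock genes, with none at an unadjusted p under 0.05, and called 0.00343% and 0% of all genes. DESeq2 was not run for these.

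**Figure D3:**
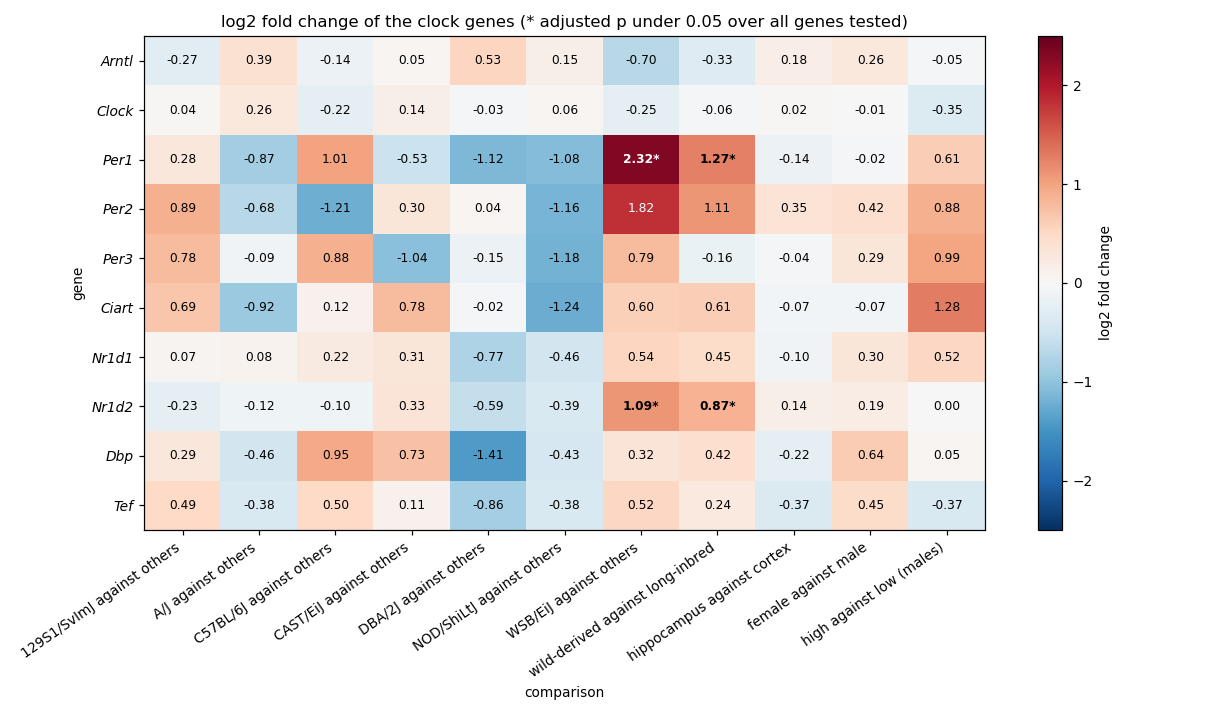
The log2 fold change of each clock gene in each comparison (rows, genes; columns, comparisons), with a star where the adjusted p passed. Only Per1 and Nr1d2 carry stars, in WSB/EiJ against the other strains and in wild-derived against long-inbred strains.

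Other parts of the clock and of pathways that act on it were read from 4 lists. Of 18 other clock genes, Bhlhe40 and Timeless were called among strains, with adjusted p of 0.0167 and 0.00126 by edgeR's quasi-likelihood test. Among all genes 2.68% were called there. BHLHE40 (DEC1) competes for E-boxes, and Timeless, despite its name, acts mainly in DNA replication. Timeless was lower in CAST/EiJ (log2 fold change -2.75, SE 0.49, adjusted p 9.33e-05) and higher in females (1.30, SE 0.30, adjusted p 0.00301). Bhlhe40 was higher in wild-derived strains (0.81, SE 0.16, adjusted p 0.00217). Of all genes 1.35% were called in CAST/EiJ, 2.56% higher in females and 0.508% higher in wild-derived strains. In WSB/EiJ 0 of the 18 passed, where 2.41% of all genes did. Their median was 0.35, beside -0.72 for all genes, a value that depended on the filter as given above. Among the most abundant of this list by CPM were Bhlhe40 (163 CPM on average) and Rora (98.6 CPM), which activates Arntl through the RORE. The 6 widely rhythmic output genes were headed by Nampt (152 CPM), the rate-limiting enzyme of NAD salvage, Tsc22d3 (69.5 CPM) and Tspan4 (23.4 CPM). They had 0 members called in each of these comparisons, whose shares of all genes called are given above.

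Of 8 genes that respond to glucocorticoids, 3 were called higher in WSB/EiJ, 0 lower, and 5 did not pass, where 1.73% of all genes were called higher. The called genes were Zbtb16, a zinc finger repressor (log2 fold change 2.08, SE 0.37, adjusted p 0.000228), Cdkn1a, an inhibitor of cyclin-dependent kinases (1.34, SE 0.32, adjusted p 0.00890), and Sgk1, a kinase (1.20, SE 0.32, adjusted p 0.0233), all by edgeR's quasi-likelihood test. The median of the 8 was 1.04, beside -0.72 for all genes, which depended on the filter as given above. Zbtb16 was also called higher in 129S1/SvImJ (1.80, SE 0.33, adjusted p 0.000511) and in females (1.66, SE 0.35, adjusted p 0.00122), where Per1 had 0.28 and -0.02. Of the 9 129S1/SvImJ libraries 6 were female, so both calls rest in part on the same libraries. Whether Zbtb16 and Per1 moved together was not tested. Among strains Zbtb16 (adjusted p 6.31e-06) and Cdkn1a (0.0288) passed, and Sgk1 was higher in wild-derived strains (1.01, SE 0.27, adjusted p 0.0434). Of all genes 1.46% were called in 129S1/SvImJ, 2.56% higher in females, 2.68% among strains and 0.508% higher in wild-derived strains. Klf9 (105 CPM), Tsc22d3 (69.5 CPM) and Sgk1 (59.4 CPM) had the largest mean CPM of this list.

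Immediate early genes, which respond within minutes to stimulation and also to tissue dissociation, were the fourth list. Of 10, 0 were called in WSB/EiJ, where 2.41% of all genes were. Their median was -0.17, beside -0.72 for all genes, which depended on the filter as given above. Jun (0.80, SE 0.21, adjusted p 0.0173) and Atf3 (1.94, SE 0.51, adjusted p 0.0145) were called higher in females, by edgeR's quasi-likelihood test. Fos (2.19, SE 0.55, adjusted p 0.0253) and Jun (0.79, SE 0.18, adjusted p 0.00842) were called higher in males titled high by the same test. Of all genes 2.56% were called higher in females and 0.294% in males titled high. Dusp1, a phosphatase, was called among strains (adjusted p 0.00796), as were 2.68% of all genes. In A/J all 10 had positive values (median 1.16) and in C57BL/6J all 10 had negative values (median -1.16). In either strain 0 of the 10 passed, where 0.254% and 0.529% of all genes did. The medians of all genes were -0.28 and -0.34 there, and 0.02 and 0.01 with the stricter filter. The most abundant by CPM were Jun (315 CPM), Dusp1 (104 CPM) and Ier2 (100 CPM).

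Cortex and hippocampus of the same title set tended to hold like levels of several clock genes. Over the 19 sets with both regions, log2(CPM + 1) in cortex and hippocampus correlated with Pearson's r of 0.77 for Nr1d1 (Spearman's rho 0.71), 0.72 for Per1 (rho 0.73), 0.64 for Arntl (rho 0.59) and 0.53 for Tef (rho 0.56). Permutation p-values adjusted over the 10 genes were 0.00140, 0.00220, 0.00927 and 0.0469. Dbp reached the threshold by rank (rho 0.55, adjusted permutation p 0.0345) but not by r (0.43, adjusted permutation p 0.114). Clock (0.12), Ciart (0.05), Per3 (0.29), Nr1d2 (0.39) and Per2 (0.49) did not pass. Without the 2 sets farthest from the median in cortex, r was 0.62 for Nr1d1, 0.69 for Per1, 0.76 for Arntl and 0.61 for Tef.

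These relations held unequally within the sexes and strains. In 13 male sets r was 0.79 for Nr1d1, 0.82 for Per1, 0.59 for Arntl and 0.54 for Tef, and in 6 female sets 0.75, 0.31, 0.88 and 0.33. With each value centred on its strain's mean, Nr1d1 kept r = 0.78 (adjusted permutation p 0.00240). Arntl then had 0.58 (adjusted permutation p 0.0516), Tef 0.39 and Per1 0.35. Centred values were shuffled over all sets without allowing for the strain means removed, so these centred p-values are too small.

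**Figure D4:**
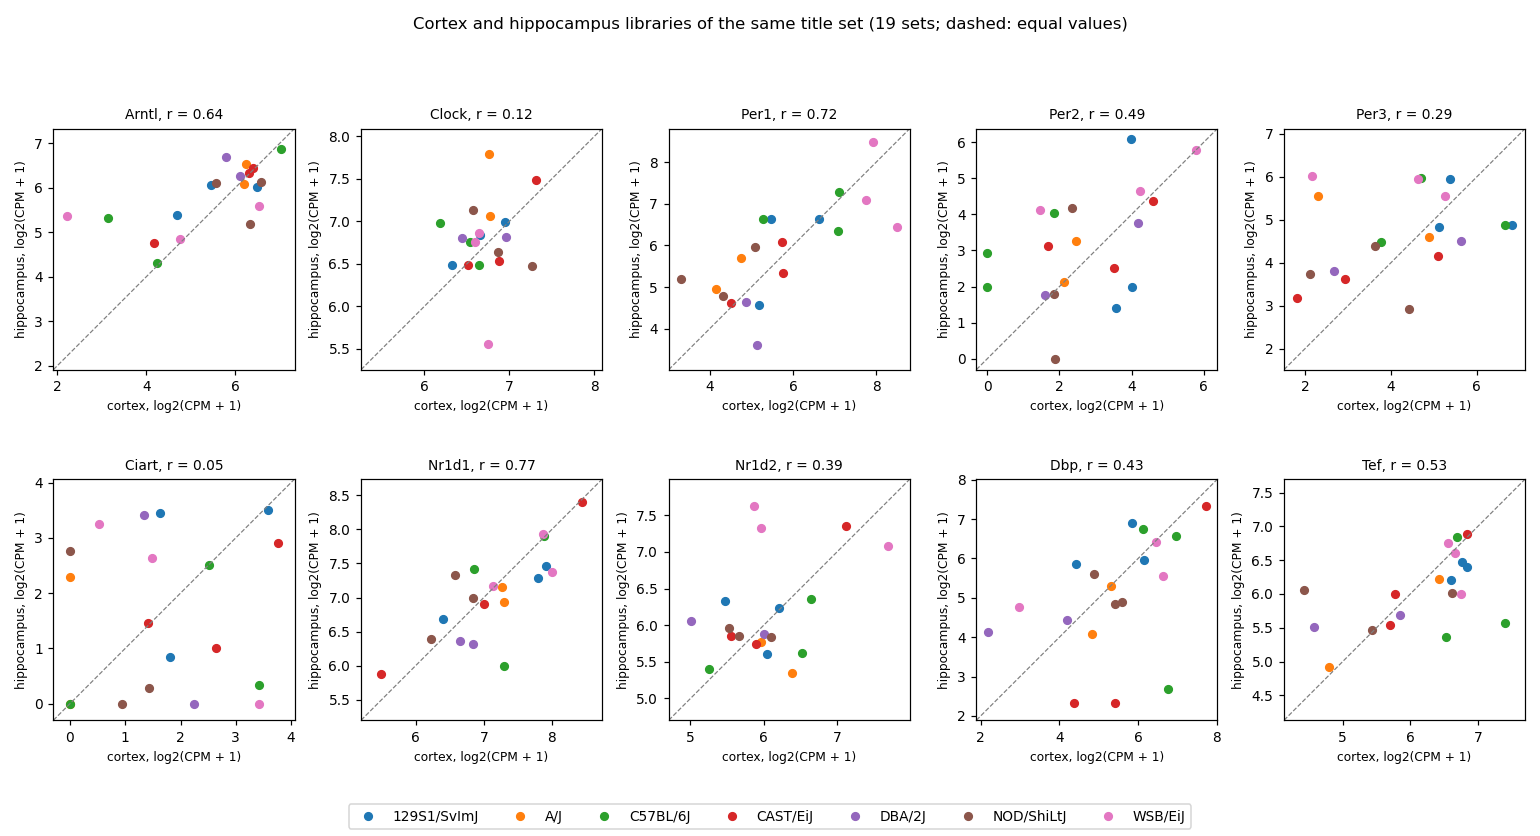
Level in cortex (horizontal) against hippocampus (vertical), both as log2(CPM + 1), for each clock gene in the 19 title sets with both regions, coloured by strain; the dashed line marks equal values. Pearson's r is highest for Nr1d1, 0.77, and lowest for Ciart, 0.05.

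Among the clock genes themselves, 10 of 45 pairs were correlated over the 24 title sets past a permutation p adjusted over the 45 pairs. Nr1d1 and Nr1d2 had the highest r, 0.75 (rho 0.84, adjusted permutation p 0.00180), and kept 0.73 without the 2 sets farthest from the median. The other 6 positive pairs were Per1 with Nr1d2 (0.55), Ciart with Nr1d2 (0.52), Nr1d1 with Dbp (0.52), Dbp with Tef (0.51), Per1 with Nr1d1 (0.51) and Per2 with Per3 (0.51). The 3 negative pairs all held an activator: Clock with Nr1d1, the lowest at -0.59 (rho -0.58), Arntl with Per1 (-0.58) and Arntl with Ciart (-0.53). These 9 had the same adjusted permutation p of 0.0484. By rank 10 pairs passed, 5 of either sign, and 15 passed over the 43 libraries. With values centred within strain 6 passed. These were Nr1d1 with Nr1d2, Per2 with Per3, Ciart with Nr1d2, Clock with Nr1d1, Arntl with Ciart, and Per2 with Dbp (0.66). The last is not among the 10 above. The centred p-values of pairs are too small for the same reason as those between regions, so these 6 calls are tentative. Per1 with Nr1d2, Nr1d1 or Arntl, Nr1d1 with Dbp, and Dbp with Tef did not pass when centred (adjusted permutation p 0.126 to 0.388).

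Arntl and Dbp, whose peaks lie apart in a running clock, had r = -0.48 (rho -0.46, adjusted permutation p 0.0684) and -0.64 without the 2 sets farthest from the median. Among the 14 male sets Arntl fell apart by strain: the 4 sets of C57BL/6J and WSB/EiJ had log2(CPM + 1) of 3.79 to 4.81 and the 10 sets of other strains 5.76 to 6.42, so r over all 14 is not given for the pairs of Arntl. Within those 10 sets, set apart after the values were seen, r of Arntl was -0.57 with Dbp, -0.57 with Nr1d2 and -0.38 with Per1. In the 10 female sets these were -0.15, -0.27 and -0.21. Nr1d1 with Nr1d2 was 0.62 over all 14 male sets and 0.88 over the 10 female sets.

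**Figure D5:**
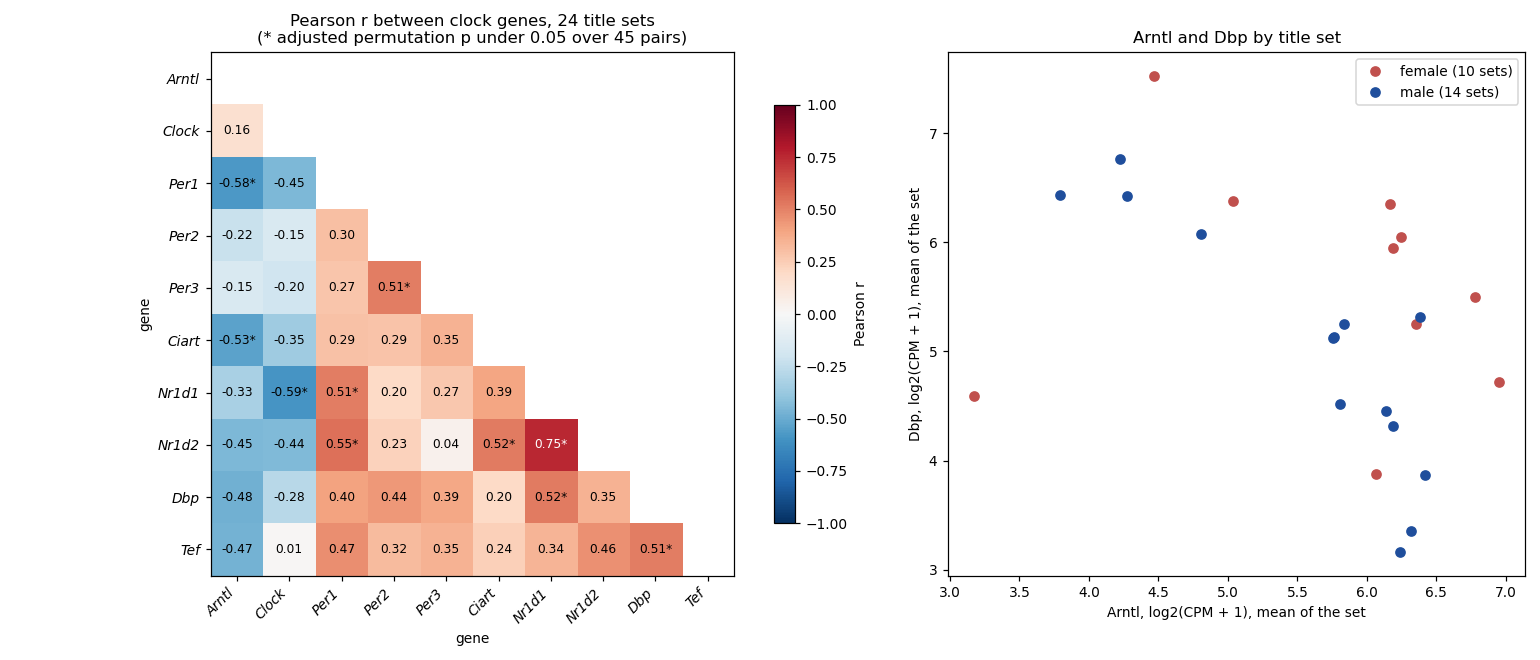
Left, Pearson's r of log2(CPM + 1) for each pair of clock genes over 24 title sets, with a star where the adjusted permutation p passed. Right, Arntl against Dbp by title set, with 14 male and 10 female sets; the 4 male sets at 3.79 to 4.81 on the Arntl axis are those of C57BL/6J and WSB/EiJ.

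Outside the clock, the genes most like Arntl over the 43 libraries, of 8670 with a mean of at least 10 CPM, included Mis12 (r = 0.61), Gm8995 (0.60), Stag1 (0.60), Rassf9 (0.56), Rfk (0.55), Bmi1 (0.54), Ppp1r7 (0.54), Nfya (0.54) and Rtp4 (0.53). The lowest was Klf9, of the glucocorticoid list, at -0.60. The genes most like Dbp were Tsc22d3 (0.61), Trmt2a (0.52), Guk1 (0.52), Cables1 (0.49), Tada2b (0.49), Cat (0.44), Map2k3 (0.44), Nat8f4 (0.43), Tmem252 (0.43) and Mrps9 (0.43), and the lowest was Gfm1 (-0.49). Tsc22d3 (GILZ) belongs to the lists of rhythmic outputs and of glucocorticoid responses. In males alone 2 of the 10 genes most like Arntl and 1 of the 10 most like Dbp remained among the highest 10. These are descriptions over libraries that share a strain, a depth range and possibly a mouse, and carry no p.

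The genes lie apart from each other in the mouse genome (GRCm38). Arntl is at chr7:113207465-113314126 and Dbp at chr7:45705088-45710203, Clock at chr5:76209868-76304792, Per1 at chr11:69095217-69109960 and Nr1d1 at chr11:98767932-98775333. Per2 is at chr1:91415982-91459324, Per3 at chr4:151003652-151044665, Ciart at chr3:95878503-95882251, Nr1d2 at chr14:18204054-18239127 and Tef at chr15:81802421-81826863. Exons of 4 of them overlap a gene on the opposite strand: Nr1d1 with Thra (263 bases), Dbp with Sphk2 (539 bases), Tef with Gm17597 (193 bases) and Arntl with Gm45355 (33 bases). Whether counting used the strand is not given in the sources used here, so reads in those bases cannot be assigned with certainty.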

How the data were processed

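Sorted brain EC were lysed, depleted of ribosomal RNA and prepared with a stranded pico-input kit for single-end sequencing. Per the submitters' processing notes and the study's methods, reads were mapped to mm10 by the authors using HISAT2 (2.1.0), handled with SAMtools (1.9) and counted per gene with featureCounts of Subread (1.4.4), within bcbio. The deposited values are raw counts per gene, 54532 genes in 43 libraries, and no other column of per-sample values was left unused. Reads of all strains were aligned to 1 reference genome, and the effect of strain variants on mapping was not tested.

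A gene was tested when any library reached 0.5 CPM (29120 genes, or 27529 in males), which all 10 clock genes passed. Counts were scaled by TMM and tested with edgeR 4.0.16 (quasi-likelihood, two-sided) in R 4.3.3, with Benjamini-Hochberg adjustment over all genes tested at 0.05. Each strain was set against the unweighted mean of the other 6, and other comparisons had no covariate. Correlations used log2(CPM + 1) and 100000 permutations, two-sided. Values centred within strain were shuffled over all sets and not within strains. RPKM values used exon lengths of GENCODE M21, to which 54409 of the 54532 genes matched by identifier. Levels at or under 3 counts were taken as the floor, which covers counting error only. Alternatives were DESeq2 1.42.0 as a test and as size factors, other filters, covariates, subsets of libraries and leaving out libraries or strains in turn. Fits were tested on simulated data before use. Python 3.11.15 with numpy 2.4.6, scipy 1.17.1 and pandas 2.3.3 made the tables. No 2 libraries held identical counts, and 38 of the 40 combinations of strain, sex, region and tag had 1 library.

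The named genes are the 10 clock genes, the list genes that passed in a comparison (at most 8 per comparison) with the 3 of largest mean CPM of each list, and the 10 genes most correlated with Arntl and with Dbp. Some of the genes that this rule names are not reported here. The clock genes and lists were chosen with earlier results of these data known.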

Additional observations from a re-analysis of the deposited data

Results flagged for a closer look

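In 70 groups, each 1 clock gene in 1 strain, 5 had a library far from the others of its strain by Dixon's test. Chance alone flags about 1 in 20 groups. Clock was at 46.0 CPM in the WSB/EiJ male hippocampus library titled high, where the next lowest of that strain was 95.9 CPM. Per3 was at 3.46 CPM in the WSB/EiJ female cortex library, next to 23.8 CPM. Per3 was at 0 CPM in the 129S1/SvImJ male hippocampus library titled low, next to 14.6 CPM. Its floor of 3 counts was 1.24 CPM. Dbp was at 5.42 CPM in the C57BL/6J female hippocampus library, next to 68.4 CPM, while Arntl in the same library was at 116 CPM. Tef was at 62.9 CPM in the WSB/EiJ male hippocampus library titled low, next to 93.1 CPM. No cause of these values was tested.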

How the results depend on the processing

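The members called among strains (2) numbered 1 with the size factors of DESeq2, without a filter, with depth as a covariate, in cortex alone and in hippocampus alone, 3 by DESeq2 (Tef added), 4 in males alone and 1 to 2 without each library in turn. Calls of a strain against the rest (2) numbered 4 by DESeq2, 3 with its size factors, without a filter and with sex and region as covariates (Per1 in C57BL/6J added), 7 in males, 1 in cortex and 1 to 3 without each library. For origin (2) there was 1 call with depth as a covariate, without the library of lowest depth, and without A/J, DBA/2J or NOD/ShiLtJ, and 0 with counts summed per strain, in cortex, in hippocampus, in males and without WSB/EiJ, where Per1 turned to -0.44. For sex (0) depth as a covariate gave 1. Between regions 4 correlations became 1 within strain. Between members 10 became 6 within strain (Per2 with Dbp being in the 6 but not in the 10) and 15 over libraries. Both counts within strain rest on p-values that are too small, as given above. With the title set as a block, 0 members and 48 genes in all were called between regions, though the labels do not say that a title set is 1 mouse. Over the alternatives, counts of all genes called ran from 184 to 1335 among strains (781 as reported), 195 to 1223 in WSB/EiJ (701), 7 to 395 for origin (218), 7 to 61 for region (22), 59 to 1031 for sex (830) and 5 to 635 for the tag (293), with 49 to 765 in 129S1/SvImJ (426), 12 to 241 in A/J (74), 25 to 572 in C57BL/6J (154), 108 to 552 in CAST/EiJ (394), 1 to 212 in DBA/2J (56) and 12 to 201 in NOD/ShiLtJ (54). The causes of these shifts were not tested. Depth limits Ciart, Per2 and Per3, whose low counts leave SEs of up to 1.36 on the log2 scale.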
